A study of Caenorhabditis elegans with 6 samples.

Results

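Glycolysis splits glucose into pyruvate, and lactate dehydrogenase reduces pyruvate to lactate and so restores the NAD+ that glycolysis uses. The 10 genes described here encode the hexokinases (hxk-1, hxk-2 and hxk-3), phosphofructokinase (pfk-1.1), the aldolases (aldo-1 and aldo-2), phosphoglycerate mutase (ipgm-1), enolase (enol-1), pyruvate kinase (pyk-1) and lactate dehydrogenase (ldh-1), 10 of 19973 protein-coding nuclear genes. They were listed as enzymes of this pathway with earlier results of these data known, and not all genes of the pathway are among them. For each one the HIF-1 peaks centred within 3000 bp of any of its annotated transcription start sites (TSSs) were collected. HIF-1 binding was measured by chromatin immunoprecipitation and sequencing (ChIP-seq) in whole L4 larvae of C. elegans grown at 20 °C in room air on OP50 bacteria. Control animals (strain OR3349) had a normal egl-9 gene, which encodes the prolyl hydroxylase known to mark HIF-1 for degradation when oxygen is present. The egl-9 mutants (strain OR3350) carried the allele sa307, in which HIF-1 is known to be stable in air. In both strains the native hif-1 gene was replaced in function: each had the hif-1 allele ia4 and the transgene odIs131, a genomic fosmid with GFP-tagged hif-1 that stems from 1 integrated line, and the tag was precipitated with anti-GFP antibodies. Both strains also shared the unc-119 allele ed3, with a working unc-119 copy on the transgene. Each genotype had 2 ChIP replicates and 1 pooled input, 6 libraries in all, which the authors reduced to 1 list of reproducible peaks per genotype. The lists held 604 nuclear peaks for egl-9 mutants and 52 for control animals. They give no values per replicate and no library depths, so no replicate spread, error or test can be given for any value here, and binding in whole larvae names no tissue.

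HIF-1 is a basic helix-loop-helix factor that, with its partner, binds hypoxia response elements (HREs). The core letters searched for were ACGTG and GCGTG. In mammals HIF-1 is known for raising the transcription of most glycolytic enzyme genes and of lactate dehydrogenase A when oxygen is low. Hexokinase, phosphofructokinase and pyruvate kinase catalyse the steps that are irreversible in the cell. Aldolase, phosphoglycerate mutase and enolase work in both directions and serve gluconeogenesis too. A peak near a gene shows where HIF-1::GFP signal was called, not whether the gene's expression changed. The study reported that most HIF-1 sites of egl-9 mutants lie in or near regions bound by many transcription factors. It says that such regions are possibly sticky and may give false signals. It also reported that a smaller share of the sites it linked to HIF-1-regulated genes lay in such regions. Genes linked to those remaining sites changed expression with HIF-1, and the study proposes that these sites are functional. Whether the peaks described here lie in such regions was not tested.

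In egl-9 mutants, 5 of the 10 genes had a peak within 3000 bp of a TSS: hxk-3, aldo-1, ipgm-1, enol-1 and ldh-1. The other 5, hxk-1, hxk-2, pfk-1.1, aldo-2 and pyk-1, had none. Each of the 5 genes with a peak had exactly 1. For comparison, 4.36% of all protein-coding genes (870 of 19973) had a peak of egl-9 mutants within this distance. The genes were listed with earlier results of these data known, so this difference is a description and carries no test. By kind of step, a peak lay near 1 of the 5 genes for irreversible steps (hxk-3) and near 4 of the 5 genes for reversible steps, all except aldo-2. Here ldh-1 was counted as reversible, and hxk-1, hxk-2 and hxk-3 are paralogs for a single irreversible step. This split rests on the same list and likewise carries no test. Of the 10 genes, 8 had more than 1 annotated TSS, which gives a peak more positions to be near. With only the outermost TSS of each gene the count was also 5. Among all protein-coding genes, 6.16% of those with more than 1 TSS and 3.68% of those with 1 TSS had a peak within 3000 bp.

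**Figure D1:**
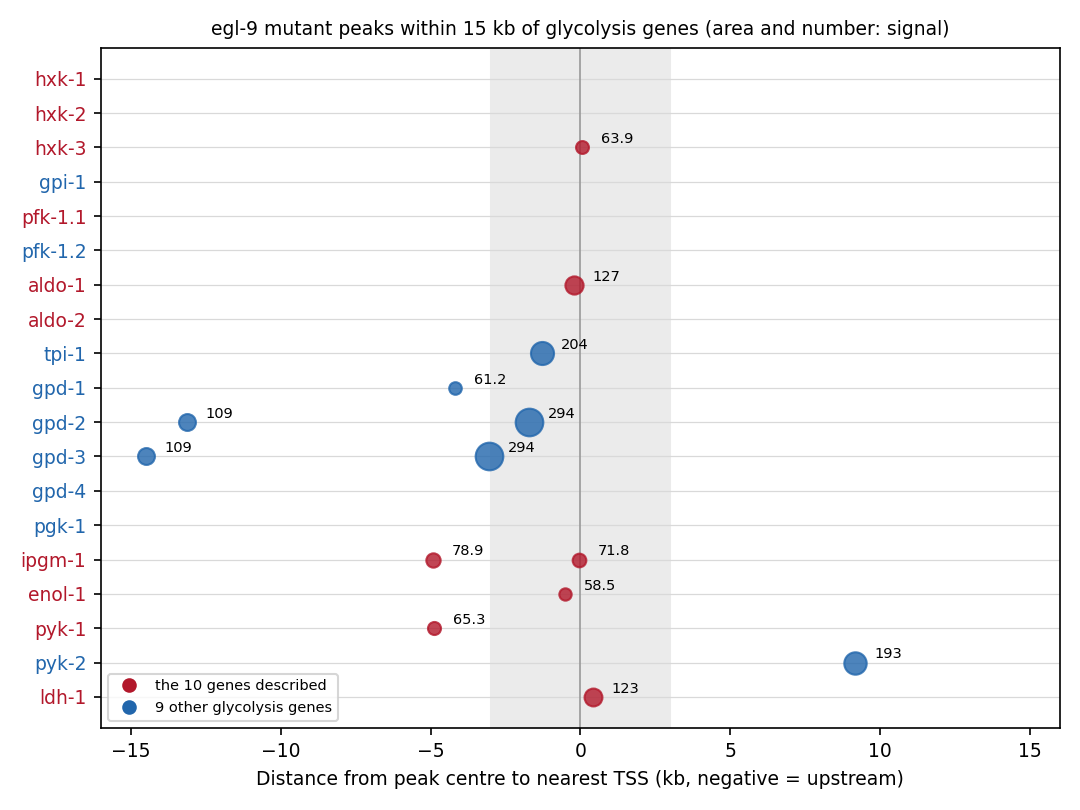
Peaks of egl-9 mutants within 15000 bp of a glycolysis gene, in the order of the pathway from top to bottom. The x axis gives the signed distance in kb from the nearest annotated TSS to the peak centre, the area of a point and the number beside it give the peak signal, the grey band marks 3000 bp, red marks the 10 genes described and blue the 9 other glycolysis genes. Points of hxk-3, aldo-1, ipgm-1, enol-1 and ldh-1 sit close to 0, pyk-1 has its point 4876 bp upstream, and hxk-1, hxk-2, pfk-1.1 and aldo-2 have none.

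The 5 peaks lay close to their genes. The peak of ipgm-1 was centred 61 bp upstream of a TSS, that of hxk-3 62 bp downstream, that of aldo-1 216 bp upstream, that of ldh-1 427 bp downstream and that of enol-1 514 bp upstream. In each case the glycolysis gene had the nearest TSS of any gene, of any biotype. Other protein-coding genes also had a TSS within 3000 bp of a peak centre. These were npp-20 at the hxk-3 peak (1666 bp), T05D4.2 at aldo-1 (2071 bp) and F13D12.5 at ldh-1 (2183 bp). At enol-1 they were mrpl-50 (1751 bp) and T21B10.3 (2790 bp). No tRNA, snoRNA or snRNA gene started closer than 13295 bp to the centre of these 5 peaks. No gene of the 10 had its nearest peak between 514 and 4876 bp, so any limit between these values selects the same 5 genes. Many C. elegans transcripts are trans-spliced, and an annotated TSS can lie downstream of the true start.

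Each peak in the deposited lists carries a signal value, used here to rank peaks within a list. The lowest signals of the nuclear peaks do not match the enrichment limits that the methods state. Mitochondrial peaks were left out here, and it is not known if both are the same quantity. Signals of the 5 peaks were 127 at aldo-1, 123 at ldh-1, 71.8 at ipgm-1, 63.9 at hxk-3 and 58.5 at enol-1. Their ranks among the 604 peaks were 105, 112, 341, 427 and 526. The aldo-1 and ldh-1 peaks were in the upper part of the list, with 82.6% and 81.5% of peaks below them. The nuclear list had a median of 76.7 and a lowest value of 54.4, so the peaks of ipgm-1, hxk-3 and enol-1 were in its lower part. Only 12.9% of peaks were weaker than that of enol-1. The nearest ranks to aldo-1 were a peak centred 1180 bp from the noncoding gene R03E9.8 (signal 128) and one 2815 bp from daf-5, a Sno/Ski-family gene (signal 127). No error is attached to a signal, so neighbouring ranks cannot be told apart.

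**Figure D2:**
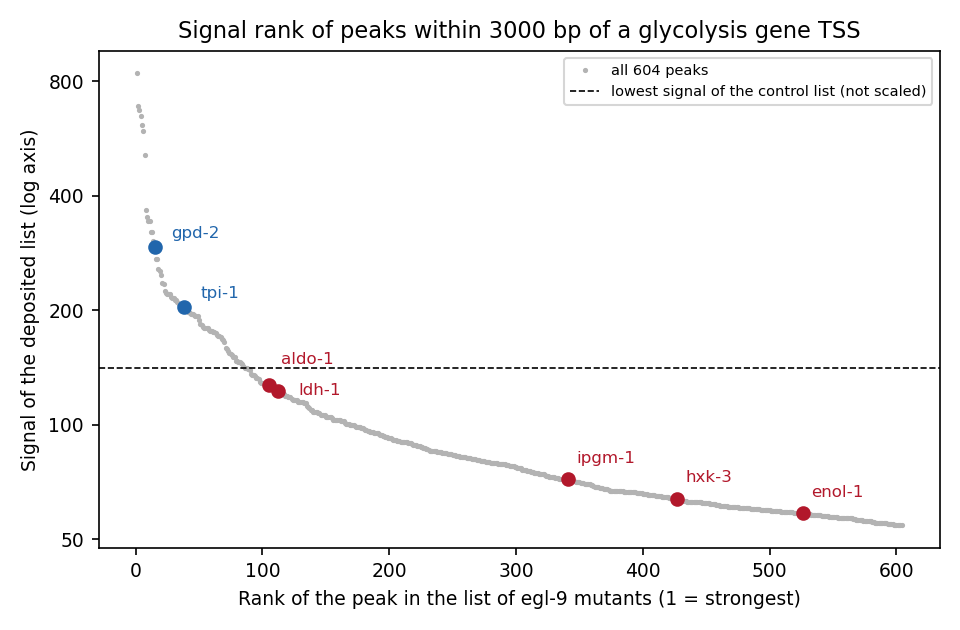
Signal of all 604 nuclear peaks of egl-9 mutants (grey, log axis) against their rank, with peaks within 3000 bp of the 10 genes in red and of the other glycolysis genes in blue. The dashed line is the lowest signal of the nuclear control peaks, 141, which is not scaled to egl-9 mutants. All 5 red points lie under the line, and the points of gpd-2 (294) and tpi-1 (204) lie above it.

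Aldolase splits fructose 1,6-bisphosphate into a pair of triose phosphates, and aldo-1 and aldo-2 encode paralogs of it, of which only aldo-1 had a peak within 3000 bp. The proteins of aldo-1 (365 residues) and aldo-2 (366 residues) were 68.2% identical over 362 aligned residues. At aldo-1, a gene with 1 annotated TSS on the minus strand (III:13563346-13564937), the peak at III:13564931-13565374 covered the sequence just before the gene and was intergenic at its centre. At aldo-2 (III:5874673-5876625) no peak was centred closer than 197352 bp, a distance larger than that of 79.2% of protein-coding genes. The window of the aldo-1 peak, 100 bp to each side of its centre, held 2 cores, 192 and 251 bp upstream of the TSS, and another core (GCGTG) lay 347 bp upstream, inside the peak. The 200 bp before the outermost TSS of aldo-2 held no core, and its nearest upstream core lay 350 bp before that TSS. The aldo-1 window reaches further upstream than this stretch, and only its core at 192 bp lies within 200 bp of the TSS. Both stretches are shown to compare the paralogs, in the direction of each gene on WBcel235, with each core in capitals (ACGTG, or CACGT where it lies on the opposite strand).
aldo-1 peak, III:13565053-13565253, minus strand: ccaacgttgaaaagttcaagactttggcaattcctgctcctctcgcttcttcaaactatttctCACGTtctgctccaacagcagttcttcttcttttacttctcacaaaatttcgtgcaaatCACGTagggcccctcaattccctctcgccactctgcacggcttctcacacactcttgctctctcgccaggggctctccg
aldo-2 upstream, III:5876626-5876825, minus strand: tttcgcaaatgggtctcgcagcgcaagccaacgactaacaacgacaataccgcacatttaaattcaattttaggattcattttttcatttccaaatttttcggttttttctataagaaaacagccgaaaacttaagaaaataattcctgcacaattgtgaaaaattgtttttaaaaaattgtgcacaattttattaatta
The GC content was 49.3% in the aldo-1 window and 30.0% in the aldo-2 stretch. The median was 45.3% over windows of all peaks of egl-9 mutants and 34.3% (quartiles 31.3% and 38%) over the 300-bp promoters of all protein-coding genes. Absence of a core from these 200 bp says nothing of the wider region: within 3000 bp to each side of the first TSS aldo-2 had 16 cores and aldo-1 had 18, of which 3 lay in the peak.

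Lactate dehydrogenase and enolase had their peaks inside the gene, in the intron between a short first exon and an exon that begins at another annotated TSS. At ldh-1 (II:11724204-11726533, plus strand) the peak at II:11724409-11724852 was centred 427 bp downstream of the first TSS and 694 bp upstream of the second. At enol-1 (II:8930997-8933799, plus strand) the peak at II:8931370-8931813 was centred 595 bp downstream of the first TSS and 514 bp upstream of the last of 3. Each peak can therefore be read as internal to the longer transcript or as upstream of the shorter one, and the peak lists do not tell which. Each window held 1 core, on the strand opposite to the gene, 16 bp downstream of the peak centre at ldh-1 and 34 bp upstream of it at enol-1. The windows are given to show this shared arrangement and the same 6 bases around the core, CACGTA.
ldh-1 peak, II:11724531-11724731, plus strand: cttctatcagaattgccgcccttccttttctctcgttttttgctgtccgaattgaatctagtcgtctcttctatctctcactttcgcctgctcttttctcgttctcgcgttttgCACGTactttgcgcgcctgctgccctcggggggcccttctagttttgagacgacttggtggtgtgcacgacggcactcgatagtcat
enol-1 peak, II:8931492-8931692, plus strand: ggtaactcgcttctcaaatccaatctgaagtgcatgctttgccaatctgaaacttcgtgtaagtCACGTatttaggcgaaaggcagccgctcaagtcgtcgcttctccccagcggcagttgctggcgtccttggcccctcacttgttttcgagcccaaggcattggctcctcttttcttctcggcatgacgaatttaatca
In signal the pair differed, with 123 at ldh-1 and 58.5 at enol-1, and in GC content they were alike (51.2% and 50.7%).

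Hexokinases phosphorylate glucose on entry into the cell's metabolism. Among the 3 paralogs only hxk-3 (IV:1497626-1510027, 4 annotated TSSs) had a peak within 3000 bp, at IV:1497466-1497909. It lay 62 bp downstream of the first TSS and 2174 bp or more upstream of the others, and its centre was in the 5' UTR. Its core was a palindrome, CACGTG, which reads as ACGTG on both strands and so counts as 2 cores at 1 site. The palindrome lies 12 bp from the peak centre and runs across the end of an annotated first exon, which closes at position 1497700. Its 25-bp surround is printed because it is the only core among these peaks with this form.
hxk-3 core, IV:1497688-1497712, plus strand: ttcaattctgCACGTGcggactgcc
The hexamer CACGTG was present in 14.4% of the windows of all peaks of egl-9 mutants. By protein sequence the 3 hexokinases were about equally far apart, 42.2% identical for hxk-1 and hxk-2, 42.4% for hxk-2 and hxk-3 and 38.7% for hxk-1 and hxk-3.

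For the other hexokinases the nearest peaks lay outside the distance used and were nearer to other genes. The nearest peak to hxk-1 was 33833 bp from a TSS (signal 62.5, 0 cores), and 28.9% of protein-coding genes had a peak closer than that. The nearest to hxk-2 was 140545 bp away (signal 59.0, 1 core), with 69.5% of genes closer. Over all protein-coding genes the median distance to the nearest peak was 74948 bp. Distances of hxk-1 and hxk-2 thus fell on either side of this median, unlike the 62 bp of hxk-3.

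Phosphoglycerate mutase interconverts 3-phosphoglycerate and 2-phosphoglycerate, and in nematodes the enzyme is the cofactor-independent form. The peak of ipgm-1 (signal 71.8) was centred between its closest cores and 61 bp before the first TSS. Its window held 2 cores, 77 and 57 bp upstream of that TSS, both on the strand of the gene and both preceded by T, so that TACGTG occurred in tandem, 20 bp apart from start to start. GC content was 34.3% in this window, below the lower quartile of 40.3% of all peak windows. A second, somewhat higher peak (signal 78.9) lay 4934 bp upstream of ipgm-1, outside the distance used, with 0 cores and nearer to bag-1, which encodes a BAG-domain cochaperone. The sequence of ipgm-1 is not shown.

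Phosphofructokinase and pyruvate kinase, which catalyse irreversible steps, had no peak within 3000 bp. For pfk-1.1 the nearest peak of egl-9 mutants was 30780 bp downstream (signal 73.0, 4 cores), and 26.9% of genes had one closer. For pyk-1, with 5 annotated TSSs, it was 4876 bp upstream of the first (signal 65.3, 1 core) and lay 21 bp from a TSS of eef-2, the gene for a translation elongation factor. Raising the distance to 5000 bp would therefore add pyk-1 through a peak that lies at another gene's start. The paralogs pfk-1.2 and pyk-2 had their nearest peaks at 15232 and 9175 bp (signals 139 and 193), so no gene of these steps had a peak within 3000 bp.

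The 9 other glycolysis genes were gpi-1, pfk-1.2, tpi-1, gpd-1, gpd-2, gpd-3, gpd-4, pgk-1 and pyk-2. Of these, 2 had a peak of egl-9 mutants within 3000 bp, tpi-1 and gpd-2, and both peaks were stronger than any peak near the 10 genes. Over all protein-coding genes the share with a peak was 4.36%. The peak of tpi-1, for triosephosphate isomerase, was centred 1290 bp upstream in intergenic sequence at II:12040207-12040650 with a signal of 204 (rank 38). Its core lay 2 bp from the peak centre. The window is shown for this nearly central TACGTG on the gene's own strand.
tpi-1 peak, II:12040329-12040529, minus strand: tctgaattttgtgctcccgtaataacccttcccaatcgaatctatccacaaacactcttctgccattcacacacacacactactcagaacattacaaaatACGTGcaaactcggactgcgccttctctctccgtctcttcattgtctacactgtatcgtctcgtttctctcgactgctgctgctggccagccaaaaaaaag
A snoRNA gene, Y17G7B.25, started 1717 bp from this peak centre, and ippk-1, for an inositol-pentakisphosphate kinase, 2481 bp from it.

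The strongest peak at the pathway lay at the head of an operon. In C. elegans mai-1, gpd-2 and gpd-3 are transcribed together, and mai-1 encodes a homologue of the mitochondrial ATP synthase inhibitor. gpd-2 and gpd-3 encode glyceraldehyde-3-phosphate dehydrogenases that were 99.7% identical in protein sequence. The peak at X:3116268-3116534 had a signal of 294, rank 15 of 604, with 97.5% of peaks below it. It was centred 188 bp downstream of the TSS of mai-1, 1712 bp upstream of the annotated start of gpd-2 and 3060 bp upstream of that of gpd-3. The distance of 3000 bp therefore counted gpd-2 and left out gpd-3, although a single peak is involved. By nearest TSS the peak belongs to mai-1. Its only core, 39 bp from the centre, was again TACGTG on the strand of the operon, shown with its surround.
gpd-2 core, X:3116428-3116452, minus strand: gccgttgcctACGTGccaacggcca
The other dehydrogenase genes, which are 99.4% identical in protein sequence to each other, had no peak within 3000 bp. The nearest lay 4171 bp upstream of gpd-1 (signal 61.2) and 129361 bp from gpd-4. Peaks lay 86729 bp from gpi-1, for glucose-6-phosphate isomerase, and 43074 bp from pgk-1, for phosphoglycerate kinase. Over the whole pathway of 19 genes, a peak lay within 3000 bp of 1 of 7 genes for irreversible steps. For reversible steps it was 6 of 12 genes, ldh-1 included and gpd-2 counted through the peak nearest to mai-1. The share over all protein-coding genes was 4.36%, and these counts carry no test.

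Every one of the 5 peaks near the 10 genes held an HRE core within 100 bp of its centre, against 67.7% of all 604 peaks (409 peaks) and 66.6% of the 422 peaks with signals between those of enol-1 and aldo-1. With a share that high in the list, 5 of 5 is not far from the background. Both strands were searched, and every core in the 5 windows was ACGTG. Distances from the peak centre to the nearest core were 4 bp at ipgm-1, 12 bp at hxk-3, 16 bp at ldh-1, 24 bp at aldo-1 and 34 bp at enol-1, against a median of 32 bp over all peaks with a core. The hexamer TACGTG, or CACGTA on the other strand, was present in the windows of aldo-1, ipgm-1, enol-1 and ldh-1, 4 of 5, and in those of tpi-1 and gpd-2. Over all windows of egl-9 mutants it was present in 19.4% (117 of 604). This hexamer was looked at after the sequences had been seen, so its count is a description. On the side after the core, ACGTGA occurred at aldo-1, ipgm-1 and enol-1 and ACGTGC at hxk-3, ipgm-1, ldh-1, tpi-1 and gpd-2, in 23.7% and 18.4% of all windows.

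**Figure D3:**
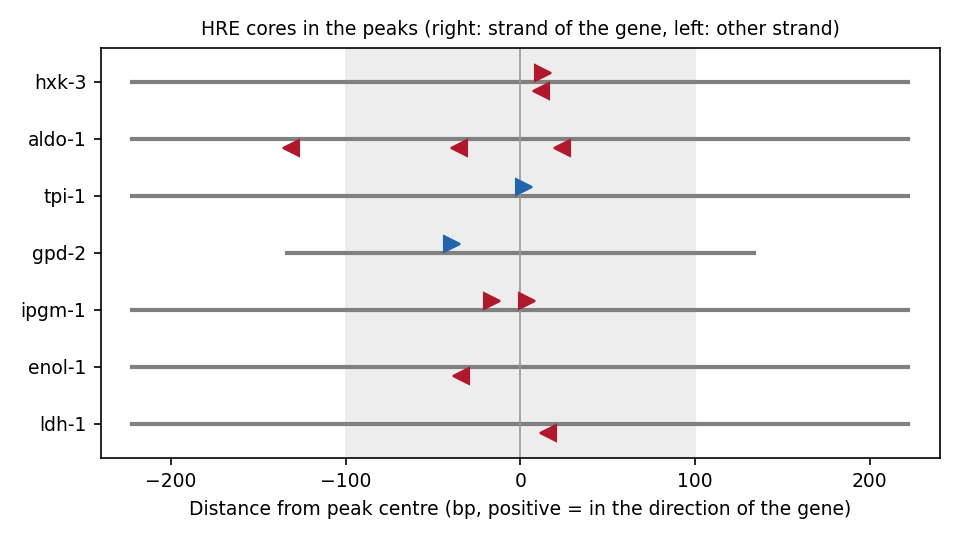
Position of each HRE core in the 7 peaks within 3000 bp of a glycolysis gene, in bp from the peak centre and in the direction of the gene. Triangles that point right lie on the gene's strand and those that point left on the other, grey lines show the extent of each peak, and the grey band is the window of 100 bp to each side. All cores but the outermost of aldo-1, 131 bp from the centre, lie in the band, and the pair at hxk-3 is a single palindrome.

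The number of cores around a gene did not separate genes with a peak from genes without. Within 3000 bp to each side of the first TSS, the 5 genes with a peak had 11 cores (hxk-3), 18 (aldo-1), 10 (ipgm-1), 20 (enol-1) and 13 (ldh-1). The 5 genes without a peak had 9 (hxk-1), 8 (hxk-2), 14 (pfk-1.1), 16 (aldo-2) and 12 (pyk-1). These ranges, 10 to 20 and 8 to 16, overlap, and the median over all protein-coding genes was 10.0, with quartiles of 7 and 13. Of the cores around the genes with a peak, 2 at hxk-3, 3 at aldo-1, 2 at ipgm-1, 1 at enol-1 and 1 at ldh-1 lay in a peak, so most cores near these genes were outside any peak. Among the other glycolysis genes gpi-1 had 35 cores and no peak, and tpi-1 had 6 and a peak. In the 300 bp around the first TSS (250 bp before to 50 bp after), a core was present at aldo-1, ipgm-1, enol-1 and pfk-1.1, 4 of the 10 genes, against 41.0% of all such promoters.

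**Figure D4:**
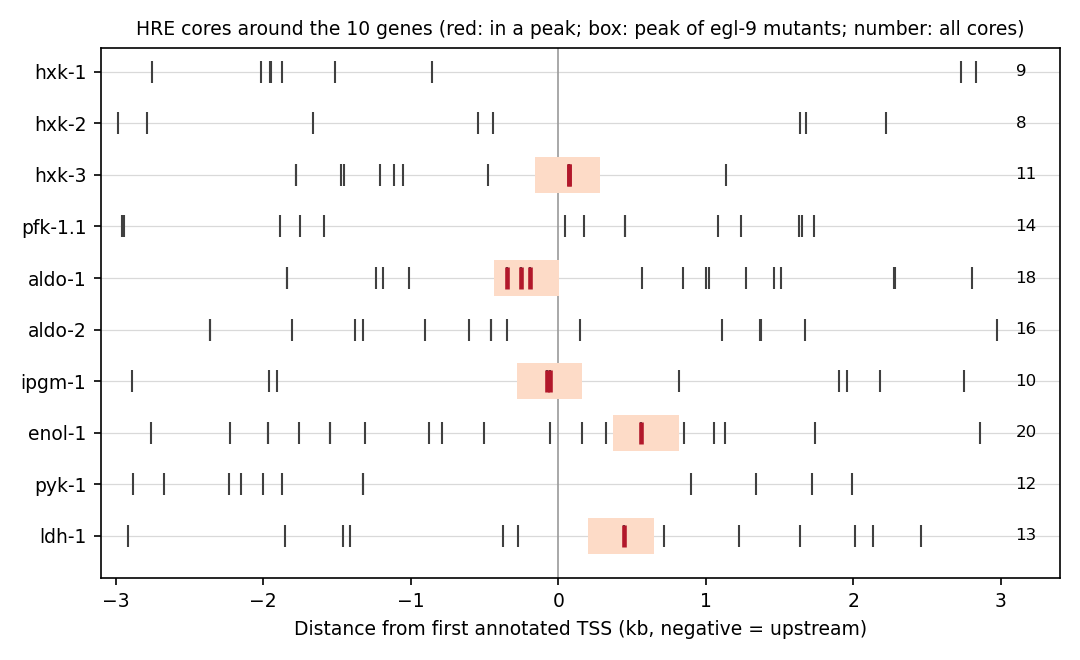
HRE cores within 3000 bp of the first annotated TSS of each of the 10 genes, in kb along the direction of the gene, with the peaks of egl-9 mutants as boxes. Red ticks are cores in a peak, dark ticks are cores outside, and the number at the right is the count of cores, 8 at hxk-2 up to 20 at enol-1. Dark ticks are spread over genes with and without a box.

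In the control list no peak lay within 3000 bp of any of the 10 genes or of the other 9. Only 0.365% of protein-coding genes (73 of 19973) had a control peak within that distance, so a count of 0 among 10 genes is near the background and shows nothing about a difference between genotypes. The nearest control peaks to the genes with a peak were 228342 bp away at enol-1, 235509 bp at ldh-1, 842698 bp at hxk-3, 1689484 bp at ipgm-1 and 2575119 bp at aldo-1. Among genes without a peak the closest was hxk-1, 36952 bp from the control peak nearest to F26H9.5, which encodes a phosphoserine aminotransferase. The remaining genes were 56184 bp (pfk-1.1), 141160 bp (pyk-1), 1594166 bp (aldo-2) and 2007469 bp (hxk-2) from one.

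None of the 5 peaks near these genes overlapped a control peak, against 10.1% of all peaks of egl-9 mutants (61 of 604). In the same signal range as the 5 peaks, 28 of 422 peaks (6.64%) had a control counterpart, so 0 of 5 is near the background. All 5 signals were below 141, the lowest value among the nuclear control peaks. No scaling links the signals of both lists, so a weaker peak in control animals and a peak below the limit of that list cannot be told apart. The peaks at tpi-1 and gpd-2 were among the 86 peaks of egl-9 mutants with signals of at least 141, of which 29 (33.7%) overlapped a control peak, and neither of the 2 did.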

How the data were processed

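HIF-1::GFP was profiled in L4 larvae of both genotypes. The submitters' processing notes name BWA and WBcel235, and the study's methods name SPP peak calling with peaks kept by reproducibility between replicates. The signal column is a value per peak as the authors deposited it, unscaled between lists. Other deposited columns used were the peak start (read as 0-based), end and summit. Most peaks (92.2%) had a width of 444 bp. Columns of other samples numbered 0. Mitochondrial peaks (19 and 18) were left out.

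Genes and TSSs came from Ensembl release 115, and sequence from the RefSeq genome, both WBcel235. Distances ran from the peak centre to any annotated TSS. Cores (ACGTG or GCGTG, both strands, a palindrome counting on each) were counted in 201-bp windows. Proteins were translated from the longest annotated coding sequence and aligned globally (Biopython 1.88, BLOSUM62). Distance and core counting were tested on simulated data with known answers. No test was run, since each genotype has 1 list. Library depths are not given per sample, so precision cannot be given.

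The members and lists were chosen with earlier results of these data known. Named genes were the 10, the 9 other glycolysis genes, genes near their peaks, the gene nearest to a control peak within 50000 bp and those next in rank to the strongest peak. The choice of eef-2, bag-1, unc-108 and the closing section's genes came after seeing values. Alternatives covered distance, peak point, TSS choice, signal, overlap, window, motif and biotypes.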

Additional observations from a re-analysis of the deposited data

How the results depend on the processing

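Of 30 alternatives, 26 kept a count within 1.5 times of its value or left any other value in place, and the other 4 are given here. The count of 5 genes with a peak ranged from 4 within 500 bp, where enol-1 dropped out, to 6 within 5000 or 15000 bp. It was 5 with the peak edge, the summit, the outermost TSS or, added after the data were seen, merged peaks. It fell to 2 among peaks above the list's median signal (aldo-1 and ldh-1) and to 0 among peaks with at least the lowest control signal, since all 5 signals are lower. Counts of control peaks near the genes and of control counterparts were 0 in every setting. A core was present in 5 of 5 peaks with windows of 50 or 200 bp to each side, over the whole peak, at the summit and with ACGTG only, and in 0 with GCGTG only. With genes of all biotypes the background share was 3.54% in place of 4.36%. No paired analysis was possible because the lists carry no values per replicate, and replicates could not be left out for the same reason.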

Other observations

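Genes that feed, drain or regulate the pathway were looked at in a list added after the data were seen. Of 11 such genes, 3 had a peak of egl-9 mutants within 3000 bp, against 4.36% of all protein-coding genes. The peak of gsy-1, which encodes glycogen synthase, lay 754 bp upstream with a signal of 90.8 and 0 cores. That of tps-2, for a trehalose-phosphate synthase, lay 2323 bp upstream (67.1) with 3 cores, and its paralog tps-1 had its nearest peak 5512 bp upstream (96.4). The peak nearest to mpc-2, for a subunit of the mitochondrial pyruvate carrier, lay 2752 bp upstream (55.7) but was closer, at 480 bp, to unc-108. No peak lay within 3000 bp of pygl-1 (glycogen phosphorylase), mpc-1, pfkb-1.1 and pfkb-1.2 (6-phosphofructo-2-kinases), or gpdh-1, gpdh-2 and gpdh-3 (glycerol-3-phosphate dehydrogenases). None of the 3 peaks overlapped a control peak, which is near the background, since 10.1% of all peaks of egl-9 mutants did.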
